A study of Homo sapiens with 6 samples.

Results

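Glycolysis and the cellular response to low oxygen were followed through 21 of the 770 genes of the NanoString PanCancer Progression Panel, in HCT116 WT cells and in HCT116 p21-/- cells. The genes were taken by symbol: the glucose transporter SLC2A1, hexokinases, GPI, PFKFB regulators, aldolase, phosphoglycerate kinase, enolases, pyruvate kinase, lactate dehydrogenase and pyruvate dehydrogenase kinase (15 genes found), and the genes of the hypoxia-inducible factors, their prolyl hydroxylases and their ubiquitin ligase (6 genes found). HCT116 is a human colorectal carcinoma line, and the p21-/- line was derived from it by disrupting both copies of CDKN1A, the gene of the cell cycle inhibitor p21. The methods name a cell collection as the source of the WT cells and another laboratory as that of the p21-/- line. Source and culture history therefore cannot be told apart from genotype. There were 3 biological replicates of each line, untreated and scraped from dishes before full confluence. The p-values weigh the difference between the lines against the spread between these samples. The labels speak of knockout clones and the methods of 1 isogenic line, so whether the p21-/- samples come from more than 1 clone is unclear. The p-values therefore cannot be read as covering variation between clones. The labels give RPMI medium for both lines, whereas the methods give DMEM with added pyruvate for the p21-/- cells. If the methods apply, medium and genotype cannot be told apart, and pyruvate is itself the end product of glycolysis.

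Glycolysis splits glucose into pyruvate. SLC2A1 brings glucose into the cell, hexokinases trap it as a phosphate, and aldolase, phosphoglycerate kinase, enolase and pyruvate kinase act further down. LDHA turns pyruvate into lactate, and PDK1 holds pyruvate back from the mitochondrion by phosphorylating pyruvate dehydrogenase. In the presence of oxygen, prolyl hydroxylases of the EGLN family mark HIF1A and EPAS1 (HIF-2α) for the VHL ubiquitin ligase, of which RBX1 is the RING subunit. When oxygen is short, the HIF proteins escape this mark and switch on many of the glycolytic genes as well as EGLN3 itself. Most of that control acts on the HIF proteins, which were not measured here.

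The deposited values are normalized barcode counts with a floor at low values that lay at 29.8 to 34.9 for the WT line and 25.7 to 33.8 for the p21-/- line. Recovered totals per sample ran from 867421 to 1187904 barcode counts for WT and from 1125126 to 1335467 for p21-/-. The geometric mean of the spiked positive controls was 1601 to 1861 for WT and 1102 to 1261 for p21-/-. CDKN1A had 4701 ± 834 normalized counts (SD, n = 3) in WT and 419 ± 37.0 (SD, n = 3) in p21-/- cells, lower as labelled, although where its probe lies relative to the disruption is not given in the sources used here. With the authors' scaling, the epithelial markers went different ways. EPCAM rose (log2 fold change 0.22, adjusted p = 0.0444), CDH1 fell from 2687 to 283 normalized counts and KRT19 fell by 0.52 on the log2 scale. The small change of EPCAM is not given under other scalings. The summed level of these epithelial markers was 14954 to 17645 in WT and 11812 to 12357 in p21-/- samples. The summed level of 5 fibroblast markers was 329 to 376 in WT and 201 to 232 in p21-/- samples. Of these 5, 1 was at the floor in all samples, so part of each sum is floor and not measured signal. The leukocyte marker PTPRC was at the floor in all samples. Because RNA came from whole pellets, fewer cells with a transcript and less transcript per cell cannot be told apart.

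All 6 oxygen-sensing genes passed an adjusted p of 0.05 in limma, 3 higher and 3 lower in p21-/- cells. Of all genes that exceeded the floor in each sample, as these 6 did, 70.2% passed. Of the 15 glycolysis genes 7 passed (46.7%), 3 higher and 4 lower, beside 47.8% of all 770 genes. The oxygen-sensing and glycolysis genes were not compared by a test. EGLN3, EPAS1, SLC2A1 and the hexokinase-like gene HKDC1 fell, and the prolyl hydroxylase gene EGLN2 rose, and these 5 genes also kept call and direction under each of 4 other scalings of the samples. In total 13 of 21 genes were called, 61.9%, beside 47.8% of all 770 genes and 70.2% of the 446 genes that exceeded the floor in each sample, and a share between these backgrounds is no result about the pathway. Counted by direction, 6 of the 21 were higher and 7 lower, beside 21.8% and 26.0% of all genes. The median log2 fold change was 0.04 over the 15 glycolysis genes, -0.09 over the 6 oxygen-sensing genes and -0.12 over all genes, or -0.05 over the 446 genes above the floor, as all 6 oxygen-sensing genes were.

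**Figure D1:**
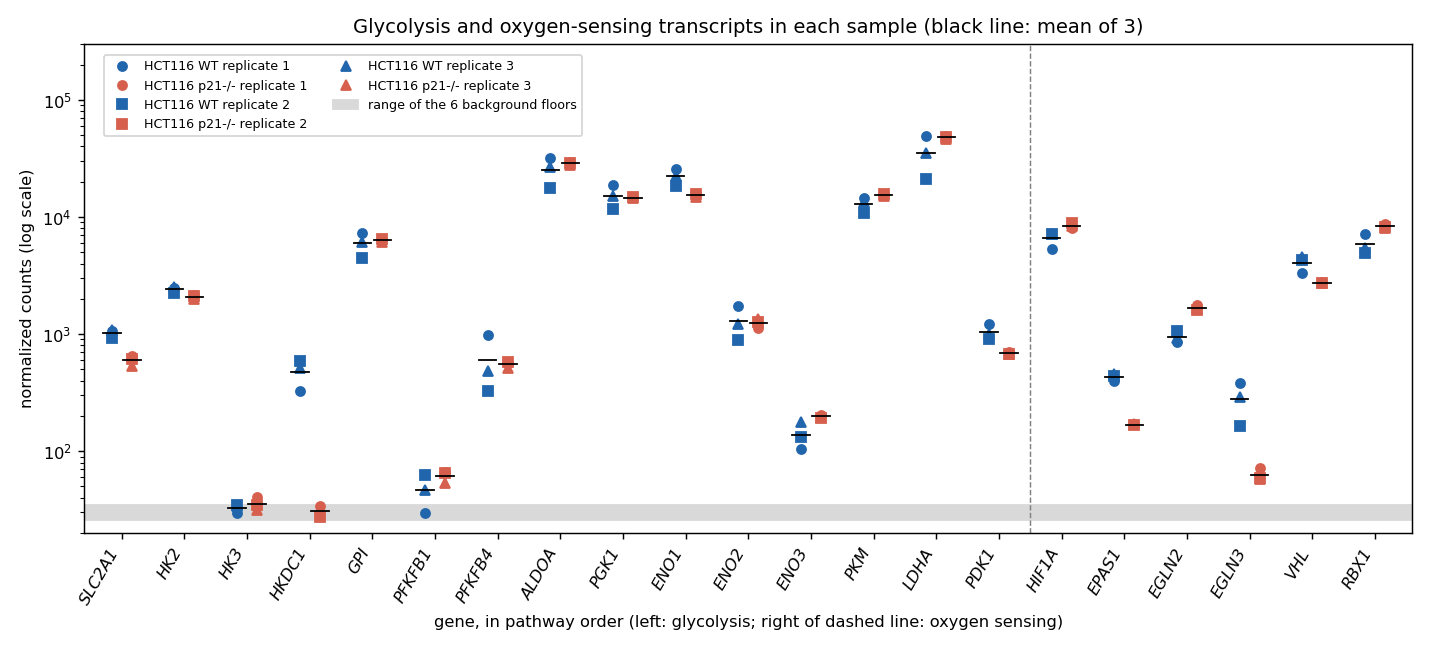
Normalized counts (log scale) of the 21 genes in each of the 3 WT (blue) and 3 p21-/- (red) samples, with the mean of each line as a black bar and the range of the 6 background floors in grey. The WT points of PFKFB4, LDHA and EGLN3 are spread over more than their p21-/- points, and the lines are far apart for HKDC1, EPAS1 and EGLN3.

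The scaling of the samples bears on the smaller changes. The median log2 fold change of the genes above the floor moved by 0.213 under median scaling, 0.176 under quantile normalization, 0.103 with TMM scaling (trimmed mean of M values) and -0.385 when samples were scaled to 30 housekeeping candidates. Under the last of these, 1 of 10 called genes of the pathway was higher in p21-/- cells (10.0%), against 46.2% with the authors' scaling. That scaling lowered the changes of all genes alike, and 81.3% of the panel was called under it. Of the 13 calls, 5 held under all 4 scalings, and the others were lost under at least 1 of them.

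Among the HIF subunits, HIF1A had 5292, 7175 and 7188 normalized counts in WT replicates 1 to 3, against 8108, 8814 and 8335 in the p21-/- replicates. All p21-/- values lay above all WT values (log2 fold change 0.38 with a standard error, SE, of 0.109, adjusted p = 0.00862), but the change was -0.01 when samples were scaled to the housekeeping candidates (adjusted p = 0.925). It was 0.23 without WT replicate 1 (adjusted p = 0.0107), and an ordinary linear model gave an adjusted p of 0.137, in a range of 6.6e-05 to 0.925 over 17 alternatives. EPAS1, encoding the second oxygen-regulated subunit, had 399, 441 and 460 normalized counts in WT and 172, 167 and 170 in p21-/- cells. Its level in p21-/- cells was 39.1% of that in WT cells, with no overlap (log2 fold change -1.35, SE 0.135, adjusted p = 3.54e-07). Thus the transcripts of the 2 HIF subunits changed in opposite directions with the authors' scaling, and the fall of EPAS1 held under every scaling tried.

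The prolyl hydroxylases also went opposite ways. EGLN2 had 856, 1057 and 929 normalized counts in WT replicates 1 to 3, against 1756, 1606 and 1668 in p21-/- replicates, an increase to 177% of the WT mean (log2 fold change 0.83, SE 0.0996, adjusted p = 2.85e-06). EGLN3, the hydroxylase whose own gene is induced by HIF, had 380, 163 and 289 normalized counts in WT replicates 1 to 3, against 71.2, 59.2 and 58.4 in p21-/- replicates. The level in p21-/- cells was 22.7% of that in WT cells (log2 fold change -2.04, SE 0.245, adjusted p = 2.77e-06). No p21-/- value of either gene overlapped a WT value. The p21-/- values of EGLN3 rest on 65 to 66 barcode counts per sample, above the floor in each. Among the 446 genes above the floor, the change of EGLN3 lay at percentile 5.16 and that of EGLN2 at percentile 89.9.

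In the ubiquitin ligase, VHL, the subunit that recognises hydroxylated HIF, had 3309, 4307 and 4533 normalized counts in WT and 2791, 2726 and 2716 in p21-/- cells (log2 fold change -0.55, SE 0.106, adjusted p = 0.000359). RBX1, the RING subunit shared by many cullin ligases, had 7130, 4964 and 5423 normalized counts in WT and 8757, 8183 and 7974 in p21-/- cells (log2 fold change 0.52, SE 0.113, adjusted p = 0.000922). Neither gene overlapped between the lines. Both calls were lost after quantile normalization, where the log2 fold change was -0.27 for VHL (adjusted p = 0.077) and 0.57 for RBX1 (adjusted p = 0.0981). The RBX1 call was also lost when samples were scaled to the housekeeping candidates (0.14, adjusted p = 0.309) and in a linear model without moderation (adjusted p = 0.0711). Over 17 alternatives the adjusted p ran from 6.52e-10 to 0.077 for VHL and from 3.8e-09 to 0.309 for RBX1.

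Other parts of this machinery came from a list of HIF partners, of which 4 genes other than the 21 were on the panel and 3 passed (75.0%, beside 47.8% of all genes and 70.2% of those above the floor, as all 4 were), all higher (beside 21.8% of all genes). TCEB2 and TCEB1, encoding elongins B and C of the VHL ligase, rose with log2 fold changes of 0.91 (SE 0.112, adjusted p = 3.68e-06) and 0.28 (SE 0.0809, adjusted p = 0.00908). That of TCEB1 became -0.11 when samples were scaled to the housekeeping candidates, and its call was lost without p21-/- replicate 1 or 2 (adjusted p of 0.0615 and 0.0673, in a range of 0.000143 to 0.186). CREBBP, a histone acetyltransferase that HIF recruits as a coactivator, rose from 852 ± 110 to 1722 ± 34.4 (SD, n = 3 per line). The log2 fold change of CREBBP was 1.02, with an SE of 0.104 and an adjusted p of 4.49e-07. Its relative EP300 did not pass (-0.17, SE 0.112, adjusted p = 0.271).

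**Figure D2:**
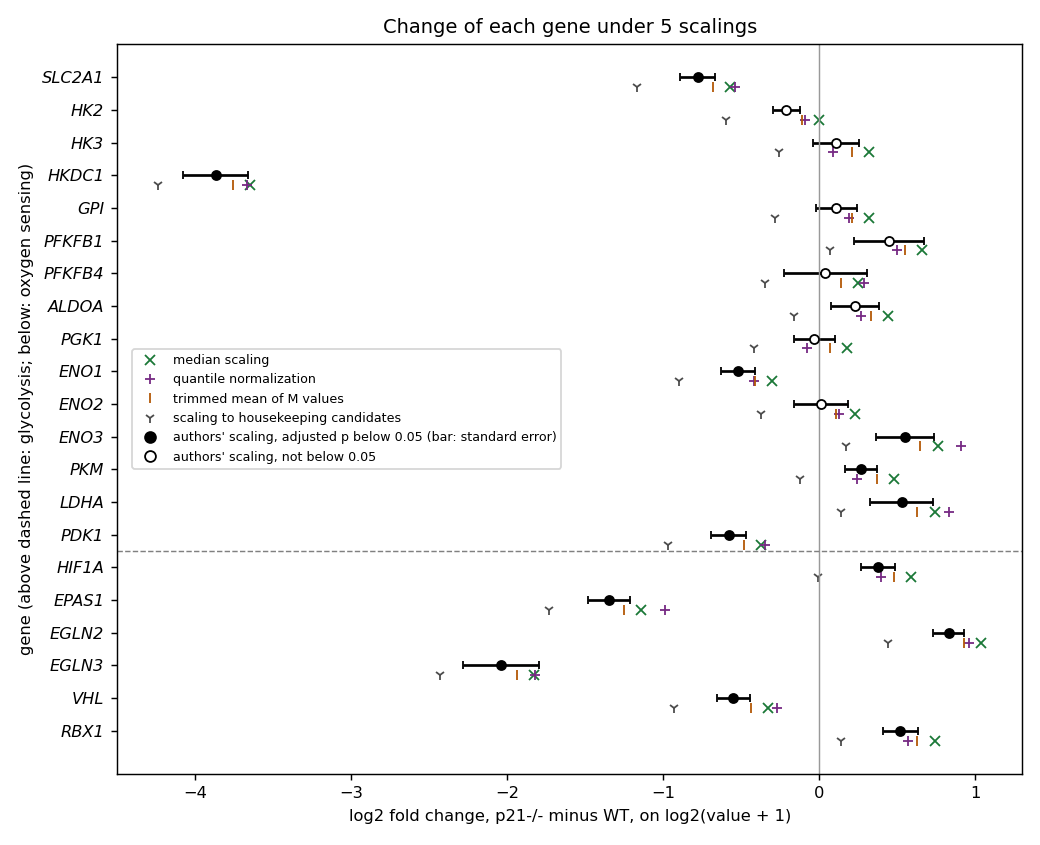
Log2 fold change (p21-/- minus WT) of each gene with its SE under the authors' scaling (circles, filled where the adjusted p was below 0.05) and its value under 4 other scalings (small marks). EGLN2 stays right of 0, and SLC2A1, HKDC1, EPAS1 and EGLN3 stay left of 0, under all 5, whereas HIF1A and PKM cross 0 under scaling to the housekeeping candidates.

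At the entry of the glycolytic pathway, SLC2A1 had 1065, 933 and 1090 normalized counts in WT replicates 1 to 3, against 656, 611 and 529 in p21-/- replicates. Its level in p21-/- cells was 58.1% of that in WT cells, with no overlap (log2 fold change -0.78, SE 0.112, adjusted p = 1.91e-05). Among those of the 21 genes that exceeded the floor in each sample, only SLC2A1 had a larger log2 SD in p21-/- cells (0.158) than in WT cells (0.121). The fall of SLC2A1 passed the test under each of the 17 alternatives.

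The hexokinases differed from each other. HK2, the inducible hexokinase of many tumours, had 2488, 2235 and 2521 normalized counts in WT and 2138, 2135 and 1980 in p21-/- cells, with no overlap but a log2 fold change of only -0.21 (SE 0.0866, adjusted p = 0.057). HKDC1, a hexokinase domain protein, had 324, 585 and 518 normalized counts in WT replicates 1, 2 and 3. In p21-/- cells it was at the floor in 2 of 3 samples and at 27.3 in replicate 2, and the adjusted p was 2.17e-10. With the p21-/- samples at their floor, or at the floor times the scaling factor or the measured value where that was higher, the ratio of geometric means made HKDC1 at least 14.6-fold lower under the authors' scaling. The fitted log2 fold change, which depends on the pseudocount and the samples, was -3.87, and ran to -3.53 with a pseudocount of 10 and -3.69 without WT replicate 2. HKDC1 had the largest change of the 21 genes. HK3 lay at the floor in every WT sample and 1 p21-/- sample, so its values give no measured fold.

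Of the enzymes of the middle steps, only GPI, ALDOA and PGK1 were measured, and none of them passed the test. No gene of phosphofructokinase itself, triosephosphate isomerase, GAPDH or phosphoglycerate mutase was found by symbol. GPI, which converts glucose 6-phosphate to fructose 6-phosphate, had a mean of 5974 ± 1422 normalized counts in WT and 6321 ± 161 in p21-/- cells (SD, n = 3 per line). Its log2 fold change was 0.11 with an SE of 0.131 (adjusted p = 0.495). ALDOA, encoding aldolase, had 31601, 17603 and 26485 normalized counts in WT replicates 1 to 3, against 29208, 29076 and 27809 in p21-/- replicates (log2 fold change 0.23, SE 0.154, adjusted p = 0.278). PGK1, encoding phosphoglycerate kinase, had 18927, 11776 and 14963 in WT and 14712, 14800 and 14390 in p21-/- cells (log2 fold change -0.03, SE 0.129, adjusted p = 0.851). For all 3 genes the p21-/- values lay within the range of the WT values.

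PFKFB4 makes and degrades fructose 2,6-bisphosphate, an activator of phosphofructokinase. It had 988, 324 and 482 normalized counts in WT replicates 1 to 3, against 561, 576 and 518 in p21-/- replicates (log2 fold change 0.04, SE 0.265, adjusted p = 0.906). The highest WT value was 3.06 times the lowest, against 1.11 times in p21-/- cells. PFKFB1, another isoform, was at the floor in 1 WT sample, with a mean of 46.5 ± 16.6 normalized counts in WT and 61.5 ± 7.26 in p21-/- cells (SD, n = 3 per line). Its log2 fold change was 0.45 (adjusted p = 0.119), and it passed as higher without WT replicate 2 (0.70, adjusted p = 0.00799) and under median scaling (0.66, adjusted p = 0.0141), but was 0.17 without WT replicate 1 (adjusted p = 0.457, in a range of 0.00799 to 0.766 over its alternatives).

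The enolase isoforms went different ways. ENO1, the ubiquitous enolase, had 25788, 18453 and 22526 normalized counts in WT and 15732, 15723 and 14783 in p21-/- cells. It fell to 69.3% of the WT mean with no overlap (log2 fold change -0.52, SE 0.109, adjusted p = 0.000785), but median scaling gave an adjusted p of 0.0848 and an ordinary linear model 0.0541, in a range of 7.7e-08 to 0.0848 over its 17 alternatives. ENO3, the muscle isoform, had 105, 131 and 178 normalized counts in WT and 205, 193 and 196 in p21-/- cells (log2 fold change 0.55, SE 0.186, adjusted p = 0.0225). Its call was lost without WT replicate 1 (adjusted p = 0.054), without p21-/- replicate 1 (0.0722) and without p21-/- replicate 2 (0.0584), in a range of 0.000759 to 0.393 over its alternatives. ENO2, the neuronal isoform, had 1731, 884 and 1230 normalized counts in WT and 1119, 1280 and 1348 in p21-/- cells (log2 fold change 0.01, SE 0.173, adjusted p = 0.962).

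At the pyruvate end, PDK1 had 1210, 904 and 1000 normalized counts in WT and 708, 676 and 681 in p21-/- cells, a fall to 66.3% of the WT mean with no overlap (log2 fold change -0.58, SE 0.114, adjusted p = 0.000404). Its adjusted p was 0.188 after quantile normalization, the highest of 17 alternatives, and 4.57e-06 at the lowest. PKM had 14428, 10906 and 13442 in WT and 15716, 15598 and 15019 in p21-/- cells (log2 fold change 0.27, SE 0.101, adjusted p = 0.0398), and its log2 fold change was -0.12 when samples were scaled to the housekeeping candidates. The PKM call was lost without WT replicate 2 (adjusted p = 0.0977) and without p21-/- replicate 1, 2 or 3 (0.109, 0.114 and 0.0672), in a range of 0.00114 to 0.301 over its alternatives.

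LDHA had 49120, 21182 and 34915 normalized counts in WT replicates 1 to 3, against 48736, 47847 and 46550 in p21-/- replicates. WT replicate 1 was as high as the p21-/- samples and WT replicate 2 was far below them, so the lines overlapped. The log2 fold change was 0.53 (SE 0.202, adjusted p = 0.0416). This was the only called gene of the 21 whose lines overlapped. The call was lost without WT replicate 2 (log2 fold change 0.20, adjusted p = 0.0808), without WT replicate 3 (adjusted p = 0.0823) and without p21-/- replicate 1 (adjusted p = 0.0627), in a range of 4.63e-06 to 0.571 over its 17 alternatives.

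Counting genes whose values did not overlap between the lines, 13 of the 21 qualified, beside 52.2% of all genes. The oxygen-sensing genes accounted for 6 of these and the glycolysis genes for 7, HK2 among them. All genes include 167 that were at the floor in every sample and so could not qualify, whereas none of the 21 was such a gene. The count is therefore no result about the pathway.

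The WT replicates differed widely in the glycolytic genes. In 9 of the 12 glycolysis genes above the floor in all samples, WT replicate 1 was highest, replicate 3 intermediate and replicate 2 lowest, namely GPI, PFKFB4, ALDOA, PGK1, ENO1, ENO2, PKM, LDHA and PDK1. Over all 446 genes above the floor, 12.8% had this order. The order was noticed in these data and is given as a description without a test. EGLN3 and RBX1 had the same order, whereas HIF1A was lowest in WT replicate 1, where those 9 glycolysis genes were highest.

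**Figure D3:**
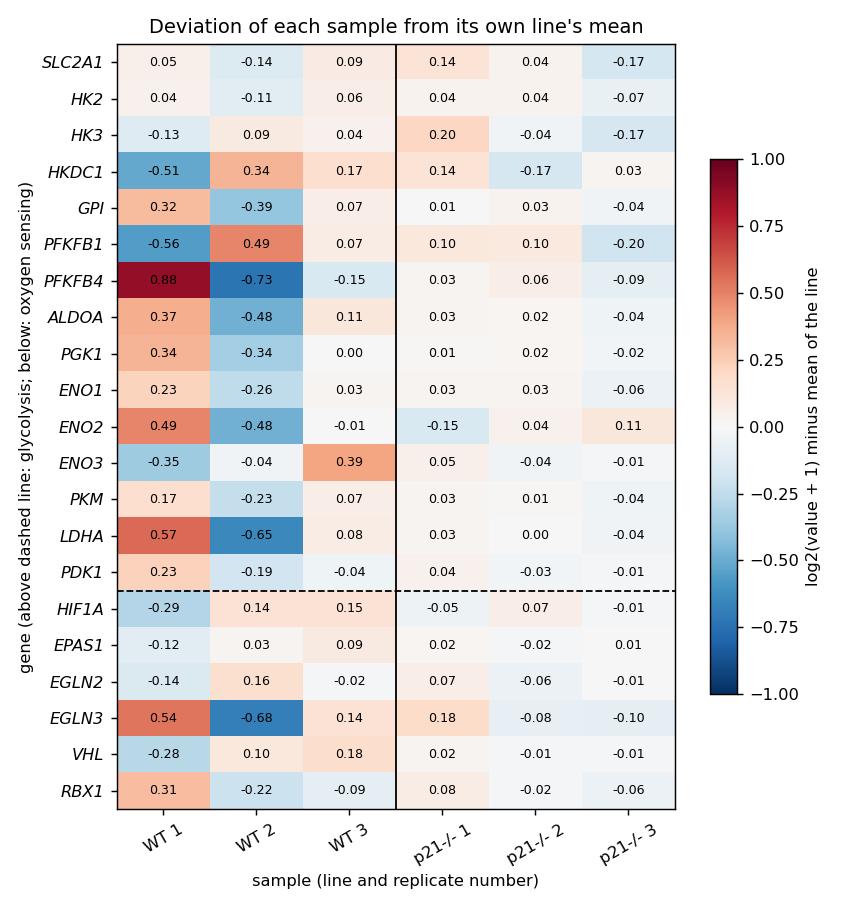
Deviation of each sample's log2(value + 1) from the mean of its own line, for the 21 genes in the 3 WT and 3 p21-/- samples (red above, blue below). In WT replicates 1 and 2 the glycolytic block from GPI to PDK1 is mostly red and mostly blue, with LDHA at 0.57 and -0.65, while the p21-/- columns are pale. Values of HK3, HKDC1 and PFKFB1 include samples at the floor.

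The size of this difference was large against other genes. WT replicate 1 exceeded WT replicate 2 by 3.06-fold in PFKFB4, 2.33-fold in EGLN3, 2.32-fold in LDHA, 1.96-fold in ENO2, 1.80-fold in ALDOA, 1.63-fold in GPI and 1.61-fold in PGK1. PFKFB4 ranked 1st, EGLN3 4th, LDHA 5th, ENO2 6th and ALDOA 8th of the 446 genes in this difference. The same 9 glycolysis genes fell in the top 10% of the ranking. The glycolysis genes had a median log2 SD of 0.35 in WT and 0.0418 in p21-/- cells, beside 0.16 and 0.0634 over all 446 genes. A larger SD in WT cells was found in 11 of the 12 glycolysis genes, beside 85.7% of all genes, so the wider spread of WT samples was shared by most of the panel.

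**Figure D4:**
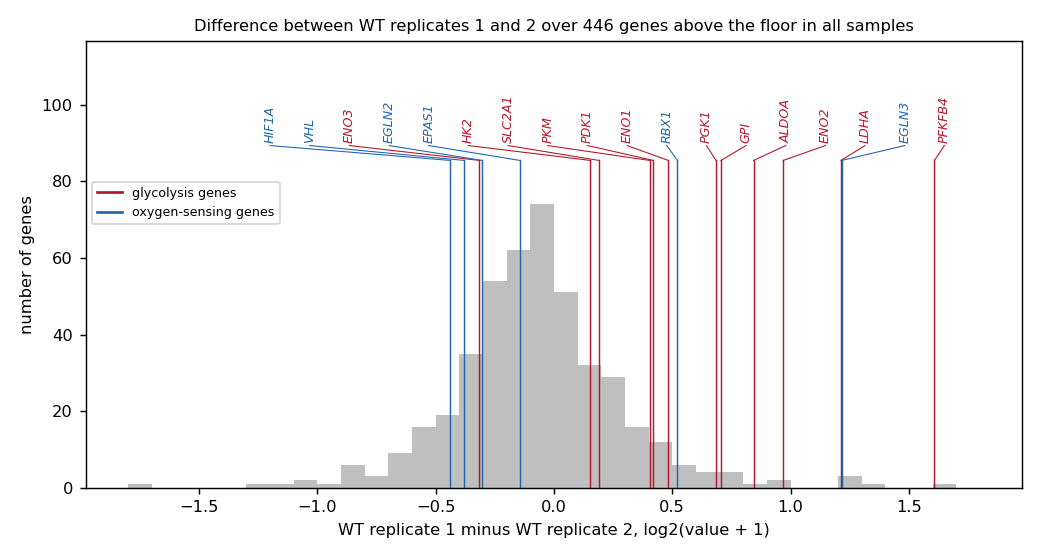
Number of genes by the difference in log2(value + 1) between WT replicates 1 and 2, over the 446 genes that exceeded the floor in each sample, with the glycolysis genes (red) and oxygen-sensing genes (blue) marked. Of the glycolytic genes, 9 lie in the right tail, from PKM at 0.40 to PFKFB4 at 1.61, and HIF1A, VHL, EGLN2, EPAS1 and ENO3 lie left of 0.

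PFKFB4 rests on 656 barcode counts in WT replicate 1 and 288 in WT replicate 2, and LDHA on 32598 and 18856. WT replicate 1 had the lowest recovered total, 867421, and the largest scaling factor, 1.507 normalized counts per barcode count, against 1.123 in WT replicate 2. The part of depth and scaling in the difference was not tested.

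The calls of several genes depended on which WT replicate entered the test. Without WT replicate 1, 4 of the uncalled genes passed as higher in p21-/- cells, namely PFKFB4 (log2 fold change 0.48, adjusted p = 0.00144), ALDOA (0.41, adjusted p = 0.00337), GPI (0.27, adjusted p = 0.0122) and ENO2 (0.26, adjusted p = 0.0364). HK2 passed as lower without WT replicate 1 (-0.19, adjusted p = 0.0371) or replicate 2 (-0.27, adjusted p = 0.0154), in a range of 2.54e-05 to 0.977 over its alternatives. Without WT replicate 2, the log2 fold changes of PFKFB4, ALDOA, GPI and ENO2 were -0.32, -0.01, -0.08 and -0.23, and none of these 4 passed. Over their 17 alternatives the adjusted p reached 0.983 for PFKFB4, 0.914 for ALDOA, 0.77 for GPI and 0.975 for ENO2. The number of genes called was 17 of 21 without WT replicate 1, where 51.3% of all genes were called, and 10 without p21-/- replicate 1, where 43.1% were.

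Of a list of other hypoxia-inducible genes, drawn up with earlier results of these data known, 22 were on the panel, and 9 passed (40.9%, beside 47.8% of all genes), 3 higher and 6 lower in p21-/- cells, while 6 were at the floor in all samples. The list thus held no larger share of called genes than the panel. Its 9 called genes, and none of its other genes, had values without overlap between the lines (40.9%, beside 52.2% of all genes). MET, a receptor tyrosine kinase, fell by 1.48 on the log2 scale and TWIST1, a transcription factor, by 1.00. VEGFA, the angiogenic growth factor, had 3463, 5317 and 5478 normalized counts in WT replicates 1 to 3, against 2237, 2260 and 2158 in p21-/- replicates (log2 fold change -1.07, SE 0.135, adjusted p = 4.78e-06). Many of these genes also respond to other signals.

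ANGPTL4, a secreted regulator of lipoprotein lipase, had 1215, 517 and 622 normalized counts in WT and 341, 279 and 295 in p21-/- cells (log2 fold change -1.26, SE 0.226, adjusted p = 0.000176). NDRG1, a stress-response gene often used as a hypoxia marker and named here after its values were seen, had 3552, 1851 and 2336 in WT and 1163, 1307 and 1286 in p21-/- cells (log2 fold change -0.99, SE 0.165, adjusted p = 9.15e-05). Both were highest in WT replicate 1 and lowest in WT replicate 2. They ranked 3rd and 7th of the 446 genes in that difference. VEGFA did not share the pattern, being lowest in WT replicate 1. The calls of NDRG1 and ANGPTL4 were lost after quantile normalization (log2 fold changes of -0.88 and -0.97, adjusted p of 0.0611 and 0.148, the highest of 17 alternatives each) and in a linear model without moderation (adjusted p of 0.0567 and 0.0676).

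The hypoxia-inducible genes that rose were low in WT cells. CXCR4, a chemokine receptor, was at 63.3 and 43.8 in WT replicates 1 and 2, at the floor in WT replicate 3, against 186, 147 and 168 in p21-/- cells. EDN1, encoding endothelin, was at the floor in 1 WT sample and rose with a log2 fold change of 1.39 (SE 0.215, adjusted p = 4.24e-05). FN1, encoding fibronectin, rose from 151 ± 23.1 to 255 ± 18.5 normalized counts (SD, n = 3 per line). Of 4 measured genes of linked carbon metabolism, 2 passed (50.0%, beside 47.8% of all genes): NR4A1, a nuclear receptor, rose (log2 fold change 0.54, adjusted p = 0.0205, and 0.15 when scaled to the housekeeping candidates), and MYC, named after its value was seen, fell with overlapping lines (log2 fold change -0.39, adjusted p = 0.0128). The NR4A1 call was lost without p21-/- replicate 2 or 3 (adjusted p of 0.0639 and 0.0948, in a range of 0.000842 to 0.41), and the MYC call without WT replicate 3 (adjusted p = 0.0748), under median scaling (0.182), after quantile normalization (0.0913), with a constant prior variance (0.0619) and with an ordinary linear model (0.191), in a range that began at 8.73e-08.

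The promoters were examined because several of these genes moved together between WT replicates. A link between promoter matches and that movement was not tested. HIF binds DNA at a short core, searched here as ACGTG and GCGTG on both strands, in the 250 bases before the gene start given by RefSeq (GRCh38.p14). The palindrome CACGTG, which other factors bind, holds ACGTG on both strands and counts as 2 matches. It was found in 6.49% of all promoters and in those of LDHA, EGLN2 and RBX1. A promoter sequence was found for 20 of the 21 genes, and 13 of the 20 held a match (65.0%), beside 43.1% of 27305 promoters of all genes and 48.3% of 557 promoters of panel genes. The searched cores contain CG, and base composition, from 35.6% GC in PDK1 to 80.8% in EPAS1, was not matched between these sets. The stretches of 250 bases below, with matches in capitals, show 3 genes that differed strongly between WT replicates and hold a match, LDHA (chr11:18394313-18394562, + strand), PGK1 (chrX:78103998-78104247, + strand) and PFKFB4 (chr3:48556804-48557053, - strand), and EGLN3 (chr14:33951075-33951324, - strand), which differed as strongly and holds none.
LDHA: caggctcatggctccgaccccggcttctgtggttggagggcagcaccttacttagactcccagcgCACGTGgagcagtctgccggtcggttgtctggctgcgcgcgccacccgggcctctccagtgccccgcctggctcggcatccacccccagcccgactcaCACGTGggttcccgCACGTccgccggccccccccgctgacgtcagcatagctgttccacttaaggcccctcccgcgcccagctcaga
PGK1: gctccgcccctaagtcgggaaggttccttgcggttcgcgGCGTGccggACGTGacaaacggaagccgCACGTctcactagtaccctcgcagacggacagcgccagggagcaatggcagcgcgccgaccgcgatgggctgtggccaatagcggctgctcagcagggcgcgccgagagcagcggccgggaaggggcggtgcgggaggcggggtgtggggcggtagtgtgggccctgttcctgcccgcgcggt
PFKFB4: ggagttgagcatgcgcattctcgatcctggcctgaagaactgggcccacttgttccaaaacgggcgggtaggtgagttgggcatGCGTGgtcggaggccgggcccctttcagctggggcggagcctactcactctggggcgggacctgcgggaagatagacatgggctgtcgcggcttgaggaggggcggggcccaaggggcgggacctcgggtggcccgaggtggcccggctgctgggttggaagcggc
EGLN3: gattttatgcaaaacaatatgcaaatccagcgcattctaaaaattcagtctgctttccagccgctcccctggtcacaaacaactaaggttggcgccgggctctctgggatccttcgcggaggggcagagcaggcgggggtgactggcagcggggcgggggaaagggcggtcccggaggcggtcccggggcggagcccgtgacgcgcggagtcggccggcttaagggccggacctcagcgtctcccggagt

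LDHA held 5 matches, including CACGTG, PGK1 held 3 and PFKFB4 held 1. No match in this window was found in EGLN3, SLC2A1, HK3, HKDC1, PFKFB1, PKM or PDK1, the other 7 of the 20. Among these, EGLN3, PKM and PDK1 were highest in WT replicate 1 and lowest in WT replicate 2. RBX1 held 4 matches and EGLN2 held 2. A match is a description of the letters in this window, and regulatory sites elsewhere were not searched.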

How the data were processed

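Transcripts of the 6 samples, 3 per line, were counted on the NanoString nCounter. The deposited gene values are a signal, which the authors normalized in nSolver with positive controls and housekeeping genes, with low values set to a floor per sample. Control rows are raw counts. A factor per sample, of which values under 500 are whole multiples within 0.1 count, gave the barcode totals. Replicate pairs differed beyond counting noise (chi-square per degree of freedom of 31.7 to 84.0 in WT, 2.09 to 5.37 in p21-/-). The methods' NanoStringDiff needs raw counts of all genes, which the floor hides for low genes, and was not used.

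The lines were compared on log2(value + 1), which understates changes of low genes, by the two-sided moderated test of limma (version 3.58.1, R version 4.3.3) with an intensity trend and no filter. Adjusted p-values are Benjamini-Hochberg values over 770 genes. An exact permutation test of 3 against 3 cannot give p below 0.1. The fit was tested on simulated data with the same spread in both lines. That test therefore does not cover the unequal spread of the WT and p21-/- replicates. All genes found by symbol are named, and of the other lists up to 5 called genes per direction without overlap, except 1 gene that is not reported here. EP300, MYC and NDRG1 were named outside this rule, after their values were seen. Genes and lists were chosen with earlier results of these data known. As alternatives, the pseudocount was 10 or 0.5, genes with a mean under 20 were dropped, samples were scaled in 4 other ways (for 1 of them to 30 commonly used housekeeping genes, since the table does not mark those the authors used), the prior variance was held constant, a linear model without moderation was used, the replicate number was a block, each sample was left out and, chosen after seeing the data, a weight per line (0.711 WT, 1.41 p21-/-).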

Additional observations from a re-analysis of the deposited data

How the results depend on the processing

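The count of 13 called genes was 13 with the replicate number as a block, but same-numbered samples did not deviate together (r of 0.0757, -0.0544 and 0.0524), so the block is not a pairing. It was 7 with an ordinary linear model, 10 when scaled to 30 housekeeping candidates and 9 after quantile normalization, where 318, 626 and 369 of all genes were called, against 368 in the main comparison. The 14 called related genes (7 higher, 7 lower) became 25 (5 higher, 20 lower) when scaled to the candidates. Of 357 values of the 21 genes under alternatives, 300 kept direction and call, 27 lost the call without a change of sign, 12 gained it without one and 18 changed sign. The cause was not tested. Sign changes were, under median scaling, HK2 (0.0029) and PGK1 (0.18), with a trimmed mean of M values PGK1 (0.07), and when scaled to the candidates HK3 (-0.26, from values mostly at the floor), GPI (-0.28), PFKFB4 (-0.35), ALDOA (-0.16), ENO2 (-0.37), PKM (-0.12) and HIF1A (-0.01). Of the called related genes, TCEB1 changed sign under the last scaling (-0.11). With each sample left out, log2 fold changes ran from -0.20 to 0.14 for PGK1, -0.08 to 0.27 for GPI, -0.32 to 0.48 for PFKFB4, -0.01 to 0.41 for ALDOA and -0.23 to 0.26 for ENO2. The count of 9 glycolysis genes in the top 10% of the WT difference was 9 with either pseudocount or a mean of at least 100, and 7 after quantile normalization. The floor limits HK3, HKDC1 and PFKFB1.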

Other observations

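At the opposite end of the difference between WT replicates 1 and 2 were the immediate early gene JUN, with a log2 difference of -1.75, the stress cytokine gene GDF15 with -1.28 and SCG2 with -1.11. They ranked last of the 446 genes and were higher in WT replicate 2, where the 9 glycolysis genes named for this difference were lowest. They were named after their values were seen, and no test was made.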
